A study of Bos taurus with 12 samples.

Results

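The libraries described here are those of endometrium, the lining of the uterus, taken from cows (Bos taurus) whose blood progesterone was very low on day 4 of the estrous cycle, set against every other library of the series. The 3 very low libraries were chosen by their label, below 0.25 ng/ml, out of 12 libraries in all, and the other 9 come from 3 classes of 3: low (below 1.4, which the labels give in mg/dl and not in ng/ml), high (above 2.5 ng/ml) and very high (above 20 ng/ml). All were biopsies of grazing dairy cows, and messenger RNA was read by sequencing. The comparison asks which genes differ between endometrium of the very low class and endometrium of the other 3 classes. The label of the low class gives no lower bound, so its place between very low and high is taken from the class names. The very low class is titled ANE and the very high class SO, abbreviations that no label spells out, and no label says whether a class differs in more than progesterone. Nor do the labels tie the replicates of a class to separate cows, so the p-values describe spread among these libraries, which may be technical.

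Progesterone is the steroid hormone of the corpus luteum, the gland that forms in the ovary after ovulation. It acts in the uterus mainly through its nuclear receptor, PGR, and there it prepares gland secretion for an embryo and restrains genes that estrogen raises, the oxytocin receptor among them. Early in diestrus its concentration climbs as the corpus luteum grows.

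The libraries held 3772564 to 8379489 counted reads, the smallest being very low replicate 2, and 10959 of 13930 gene symbols had enough reads to be tested. The 18 tested smooth muscle markers had a mean log2 CPM (counts scaled to the size of the library) of 11, 4.50 and 5.71 in very low replicates 1, 2 and 3, against 4.44 to 5.45 in the low class and 8.59 to 9.84 in the high and very high classes. The 18 epithelial markers stood at 3.11, 8.14 and 6.77 in the very low libraries, against 5.86 to 7.33 in the other 9. The very low class held both the lowest and the highest epithelial score of the series. The epithelial adhesion molecule EPCAM, a defining marker of epithelium, had 21.9, 584 and 242 CPM in the very low libraries and 234 to 428 CPM in the others, so very low replicate 1 had little of it. Neutrophil markers were at 7.80 in very low replicate 2, against 2.27 and 3.73 in its 2 fellow replicates and 2.03 to 5.72 in the other classes. Of the 10 marker lists, 1 separated the 3 very low libraries from the other 9: the 4 tested blood markers stood at 1.08, 1.53 and 1.47 in the very low class and 2.02 to 3.02 in the others, and their part in the results was not tested. In bulk tissue fewer cells of a type and less RNA per cell cannot be told apart.

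**Figure D1:**
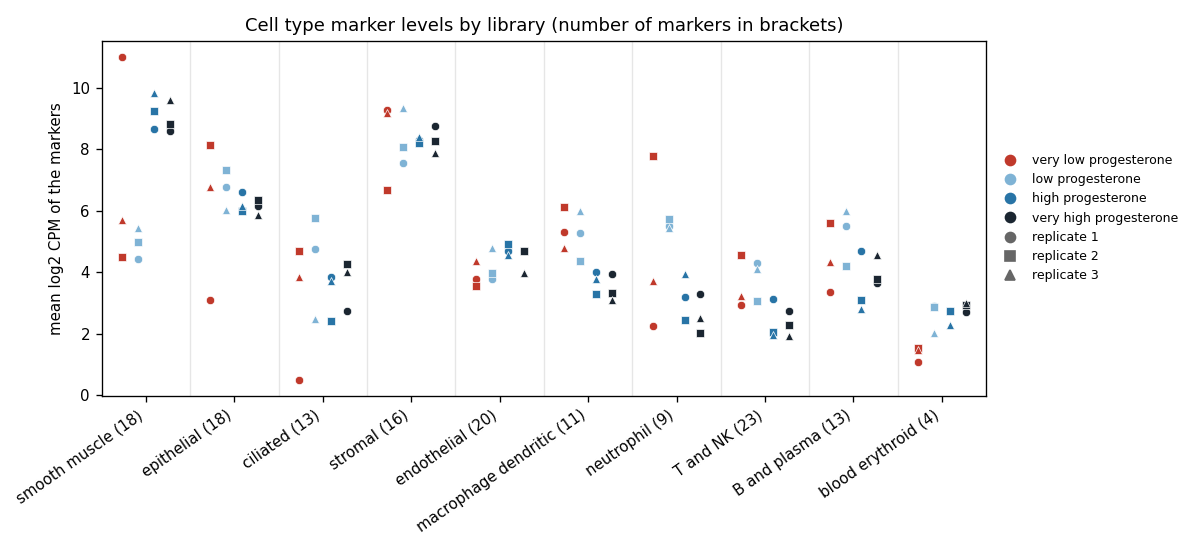
Mean log2 CPM of each cell type marker list (vertical axis) in each library, with 1 point per library and colours for the 4 progesterone classes. For smooth muscle and epithelium the 3 very low points span a wider range than the other 9 together, and the blood markers are the 1 list in which they lie on 1 side.

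Because of that spread a gene was read as set apart by very low progesterone only if it passed the test and all 3 very low libraries lay on the same side of all 9 others. The test set the mean of the very low class against the equally weighted means of the low, high and very high classes (edgeR quasi-likelihood test on counts, Benjamini-Hochberg adjustment over 10959 genes, threshold 0.05). It called 95 genes, 0.867% of those tested, 32 higher (0.292%) and 63 lower (0.575%) in the very low class, and 2617 (23.9%) had an unadjusted p under 0.05. Of the called genes 81 (0.739%) also had no overlap between the groups, 21 higher (0.192%) and 60 lower (0.547%). Lower genes moved further: 33 of the 60 differed by at least 4-fold and 18 by at least 8-fold, against 2 and 1 of the 21 higher genes. With no p-value asked for, 546 genes (4.98%) had all 3 very low libraries on 1 side, 346 below (3.16%) and 200 above (1.82%).

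**Figure D2:**
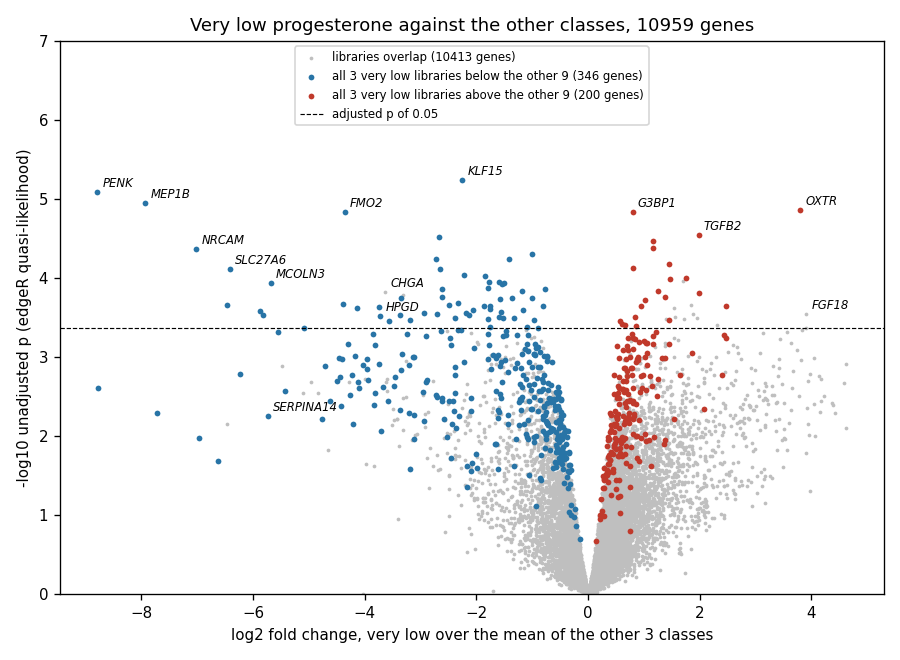
Log2 fold change of the very low class over the mean of the other 3 classes (horizontal axis) against -log10 of the unadjusted edgeR p (vertical axis), 1 point per gene. Blue and red points are the 346 and 200 genes whose 3 very low libraries lie all below or all above the other 9, and the largest changes lie on the lower side, where PENK reaches -8.79.

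The genes whose very low libraries stood furthest below the others coded for a secreted peptide precursor and a protease. PENK, the precursor of the enkephalin opioid peptides, had 1.06, 0.516 and 6.50 CPM in very low replicates 1, 2 and 3, against 291 to 4482 CPM (median 899.7) in the other 9 libraries. Its mean was 2.69 ± 3.31 CPM in the very low class (SD, n = 3). The nearest libraries of the 2 sides, very low replicate 3 and low replicate 3, were 5.38 log2 units apart, the widest gap of any tested gene, and the log2 fold change was -8.79 with a standard error (SE) of 1.11 (edgeR adjusted p = 0.0267). The meprin beta gene MEP1B, which encodes a membrane-bound metalloprotease, had 0, 0.516 and 1.04 CPM in the very low class and 32.0 to 607 CPM (median 121) elsewhere (log2 -7.93, SE 1.03, edgeR adjusted p = 0.0267). The very low libraries held 0, 2 and 8 MEP1B reads in all. In neither gene did any other library come near the very low ones.

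Cell surface and vesicle proteins followed. NRCAM, a cell adhesion molecule of the immunoglobulin family, had 0, 0.258 and 2.73 CPM in the very low libraries and 14.6 to 313 CPM (median 163) in the rest, a log2 fold change of -7.01 (SE 1.06, edgeR adjusted p = 0.0433). MCOLN3, a cation channel of endosomes and lysosomes, had 0, 1.55 and 4.68 CPM against 17.8 to 219 CPM (median 127) (log2 -5.68, SE 0.96, edgeR adjusted p = 0.0446). SV2B, a membrane glycoprotein of secretory vesicles, had 8.13, 0.774 and 13.9 CPM against 35.4 to 135 CPM (median 70.8) (log2 -3.19, SE 0.62, edgeR adjusted p = 0.0446). In all 3 genes low replicate 3 or another low library was the lowest of the other 9, and for NRCAM and MCOLN3 very low replicate 1 held no read. Chromogranin A, CHGA, a protein of secretory granules, passed the test (log2 -3.63, edgeR adjusted p = 0.0446) but overlapped, with 4.24, 1.03 and 1.95 CPM in the very low class and 3.33 to 127 CPM in the others. CHGA averaged 7.61, 39.9 and 94.3 CPM in the low, high and very high class (unadjusted edgeR p among these classes 0.00066). Of the 12 tested neuropeptide and granule genes PENK and CHGA fell, against 0.575% of all tested genes, and the list had a median log2 fold change of -0.10, while 0.12 was the median over all tested genes. This list and those below were chosen with earlier results of these data known, so such counts are not independent evidence.

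Enzymes and carriers of lipids and xenobiotics were lower as well. SLC27A6, a fatty acid transport protein, had 0, 0 and 13 reads in the very low libraries, that is 0, 0 and 1.69 CPM, against 6.51 to 97.6 CPM (median 74.8) (log2 -6.42, SE 1.04, edgeR adjusted p = 0.0446). The flavin-containing monooxygenase FMO2 had 0.177, 1.29 and 1.69 CPM in the very low class and 11.7 to 37.5 CPM (median 19.7) in the others, so the groups stood 2.48 log2 units apart at their nearest (log2 -4.36, SE 0.58, edgeR adjusted p = 0.0267). FMO4 of the same family had 16.4, 17.8 and 14.3 CPM against 45.9 to 232 CPM (median 97.8) (log2 -2.62, SE 0.46, edgeR adjusted p = 0.0446), and its 3 very low values were nearly equal. GGT5, a gamma-glutamyltransferase that processes glutathione conjugates and leukotriene C, had 22.1, 68.9 and 72.1 CPM against 171 to 640.4 CPM (median 338) (log2 -2.65, SE 0.43, edgeR adjusted p = 0.0446).

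A maker and a degrader of prostaglandins both fell. HPGD, the enzyme that inactivates prostaglandins, had 6.72, 19.4 and 69.8 CPM in the very low libraries, against 208 to 619 CPM (median 426) in the other 9 (log2 -3.72, SE 0.71, edgeR adjusted p = 0.0446). AKR1B1, the aldoketoreductase that makes prostaglandin F in the bovine endometrium, had 101, 58.3 and 159 CPM against 247 to 764 CPM (median 548) (log2 -2.33, SE 0.42, edgeR adjusted p = 0.0446). HPGD averaged 424 ± 179, 416 ± 203 and 429 ± 69.9 CPM in the low, high and very high class (SD, n = 3 each), with an unadjusted edgeR p among these classes of 1.0, and AKR1B1 averaged 499 ± 259, 517 ± 151 and 585 ± 104 CPM. Of the 20 tested prostaglandin and oxytocin genes these 2 fell and the oxytocin receptor rose, where 0.575% of all tested genes fell and 0.292% rose. PTGES, a prostaglandin E synthase, had 10.1, 133 and 37.4 CPM in the very low class and 1.25 to 50.1 CPM (median 4.23) in the rest, with overlap, and missed the threshold (log2 3.08, SE 0.68, edgeR adjusted p = 0.0533). The median log2 fold change of the list was 0.33, beside 0.12 over all tested genes.

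**Figure D3:**
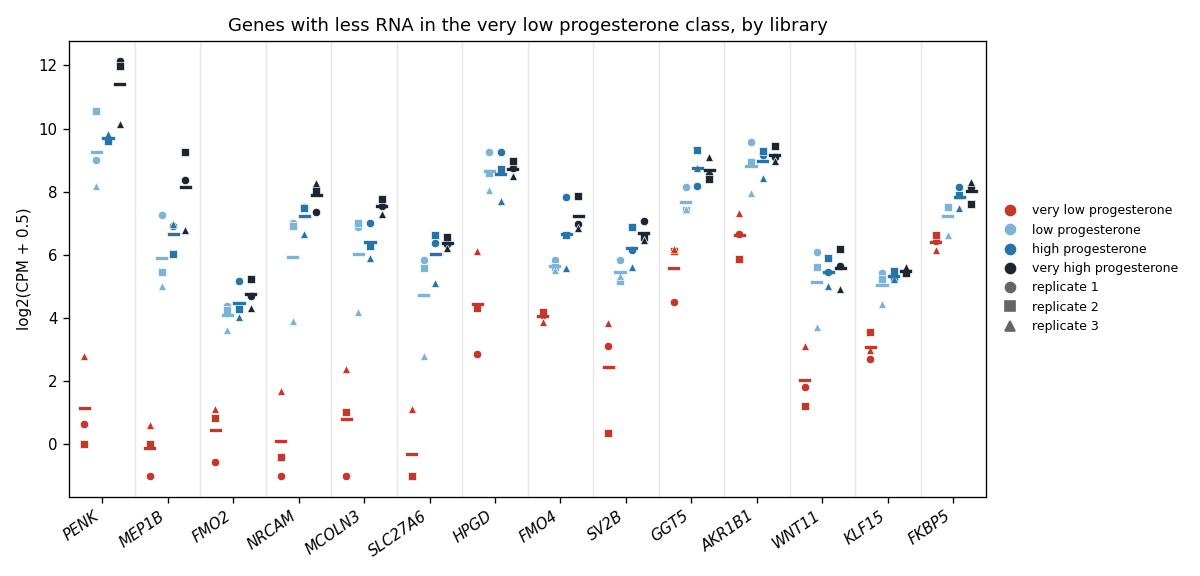
Log2(CPM + 0.5) of 14 genes lower in the very low class (vertical axis), with 1 point per library, bars at the class means, and classes from very low at the left to very high at the right within each gene. The red very low points lie below every other point of their gene, by 5.38 log2 units for PENK and by 0.0215 for FKBP5.

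Among the receptors that read steroids, the RNA of the progesterone receptor itself leaned the other way. PGR had 62.2, 34.1 and 70.3 CPM in the very low class and 20.0 to 37.5 CPM (median 27.7) in the rest, a log2 fold change of 0.93 (SE 0.21) that missed the threshold (edgeR adjusted p = 0.0550), and very low replicate 2 lay within the range of the others. The main uterine estrogen receptor, ESR1, had 106, 151 and 40.7 CPM against 17.5 to 84.4 CPM (median 46.8) (log2 1.18, SE 0.45, edgeR adjusted p = 0.144), with very low replicate 3 inside the range of the other classes. KLF15, a zinc finger transcription factor, had 6.01, 11.4 and 7.41 CPM against 21.3 to 48.3 CPM (median 42.2) and the smallest p of the whole comparison (log2 -2.25, SE 0.27, edgeR adjusted p = 0.0267). FKBP5, a co-chaperone of steroid receptors, had 85.7, 98.1 and 70.1 CPM against 99.6 to 316 CPM (median 197) (log2 -1.33, SE 0.26, edgeR adjusted p = 0.0446), and its groups all but touched, at 98.1 CPM in very low replicate 2 and 99.6 CPM in low replicate 3. TSC22D3, the glucocorticoid-induced leucine zipper, lay on the same side at 35.3, 149 and 112 CPM against 222 to 732 CPM but did not pass (log2 -2.33, edgeR adjusted p = 0.0507). Among steroid receptors and their partners, 23 were tested, of which 2 fell and none rose, where 0.575% of all tested genes fell and 0.292% rose. The median log2 fold change of that list was 0.05 and its mean -0.32, which differ in sign.

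The oxytocin receptor showed the largest rise with no overlap. OXTR, through which oxytocin triggers the release of prostaglandin F at the end of the cycle, had 56.2, 209 and 167 CPM in very low replicates 1, 2 and 3 and 2.52 to 37.8 CPM (median 8.54) in the other 9 libraries (log2 3.80, SE 0.51, edgeR adjusted p = 0.0267). The lowest very low library stood above the highest of the others, a high progesterone library, by 0.56 log2 units. It was the 1 called gene of 22 estrogen-associated genes tested, where 0.867% of all tested genes were called. The median log2 fold change of that list was 1.05, and 0.26 without very low replicate 2.

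Ligands and receptors of growth and guidance signals were found on both sides. TGFB2, a ligand of the TGF-beta family, had 22.6, 52.9 and 33.5 CPM in the very low class and 4.36 to 12.9 CPM (median 9.50) in the others (log2 1.98, SE 0.29, edgeR adjusted p = 0.0416). The ephrin receptor EPHB1 had 8.13, 4.39 and 7.93 CPM against 0.458 to 3.19 CPM (median 1.01) (log2 2.47), and the semaphorin SEMA6A had 16.1, 37.4 and 21.6 CPM against 6.60 to 12.2 CPM (median 8.70) (log2 1.47). In each of these 3 genes all very low libraries were above all others, as the rule of widest gaps that named them requires. FGF18, a fibroblast growth factor, had the highest log2 fold change of all called genes, 3.91, but overlapped: it stood at 1.24, 42.1 and 5.46 CPM in the very low class, so very low replicate 2 carried most of it, against 0.249 to 2.37 CPM elsewhere. Without that library its log2 fold change was 1.65. In the opposite direction BMP4, a bone morphogenetic protein, had 32.2, 15.5 and 41.6 CPM against 68.9 to 187 CPM (median 89.6) (log2 -1.75), and the ligand WNT11 had 3.00, 1.81 and 8.19 CPM against 12.7 to 73.2 CPM (median 48.1) (log2 -3.36). The edgeR adjusted p of EPHB1, SEMA6A, FGF18, BMP4 and WNT11 was 0.0446 each. Of 37 tested growth factor genes TGFB2 and FGF18 rose and BMP4 fell (median of the list 0.45), and of 31 WNT, HOX and uterine regulator genes WNT11 fell (median 0.36, and -0.83 without very low replicate 3). Over all tested genes 0.292% rose and 0.575% fell.

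The remaining genes with the widest gaps on the higher side code for regulators of chromatin, RNA and trafficking, and their changes were smaller. PHF19, an accessory subunit of the Polycomb repressive complex that methylates histone H3, had 14.1, 17.3 and 13.9 CPM in the very low libraries and 3.49 to 7.55 CPM (median 5.15) in the others, and with a gap of 0.84 log2 units it stood furthest apart of all higher genes (log2 1.45, SE 0.23, edgeR adjusted p = 0.0446). G3BP1, a core protein of stress granules, had 123, 104 and 108 CPM against 57.5 to 70.0 CPM (median 64.7) (log2 0.80, SE 0.11, edgeR adjusted p = 0.0267). For both genes every very low library was above every other one, which the choice by gap requires. CALU, a calcium-binding protein of the secretory pathway (log2 1.25), GNPTAB, which tags enzymes for the lysosome (1.17), the nuclear import receptor KPNB1 (0.86) and the membrane fusion protein YKT6 (0.66) completed the group, at edgeR adjusted p of 0.0417 to 0.0488. YKT6 had 47.0, 49.6 and 47.6 CPM in the very low class, against 27.5 to 37.9 CPM (median 29.1) in the rest.

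**Figure D4:**
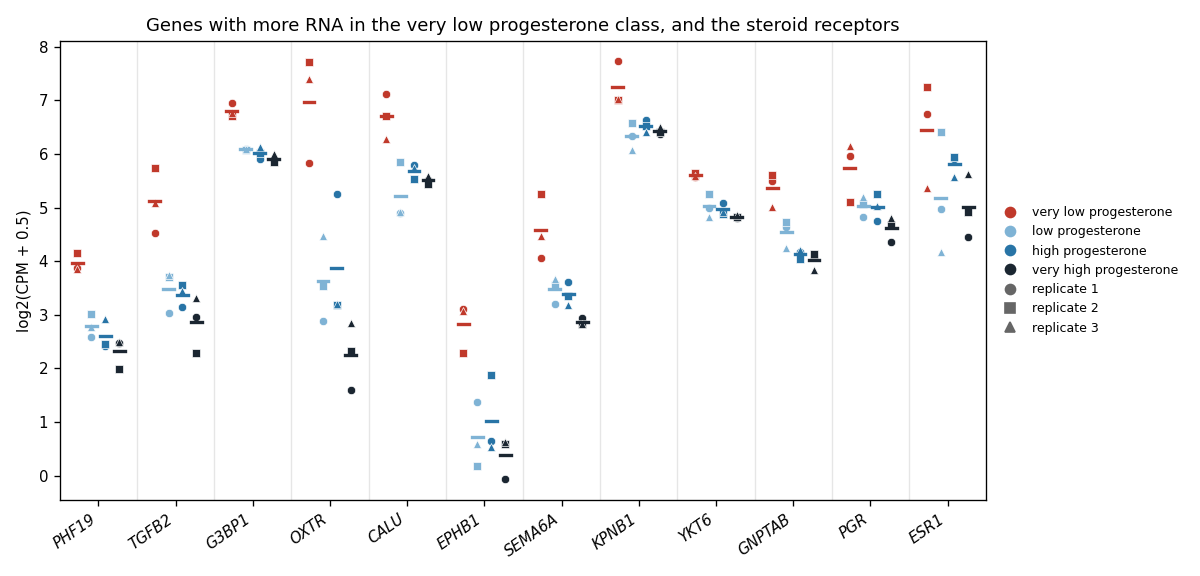
Log2(CPM + 0.5) of the 10 genes with the widest gap on the higher side and of PGR and ESR1 (vertical axis), with 1 point per library, bars at the class means, and classes from very low to very high within each gene. The red very low points lie above all others for the first 10 genes, and 1 red point each of PGR and ESR1 falls within the range of the other classes.

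Among the lists with at least 5 tested members, the progesterone-associated genes held the highest share with no overlap between the groups. Of 37 tested progesterone-associated genes, 14 had all 3 very low libraries below the other 9 and none above, where 3.16% of all tested genes lay below, and 7 of the 14 passed the test, where 0.547% of all tested genes passed in that direction. Some of these members were listed because earlier results in these same libraries had shown them to differ, so the count is not independent evidence of its direction. The 7 others were TIMP2, DKK1, CES4A, SERPINA14, TDGF1, IGFBP1 and IHH, with edgeR adjusted p of 0.0533 to 0.152. TDGF1, a co-receptor for NODAL also called cripto, had 4.07, 4.13 and 271 CPM in the very low class and 411 to 3970.5 CPM (median 2841) in the others. DKK1, a secreted inhibitor of WNT signalling, had 0.177, 0.774 and 2.21 CPM against 4.64 to 67.7 CPM (median 13.6). SERPINA14, the uterine serpin or uterine milk protein, had 0, 0 and 1.30 CPM against 2.28 to 396 CPM (median 14.0) and was highest in low replicate 3, the other 8 libraries of those classes reaching 27.9 CPM. IHH, the hedgehog ligand of uterine epithelium, had 0.353, 1.29 and 64.9 CPM against 75.7 to 539 CPM (median 177), so very low replicate 3 lay close to the others while replicates 1 and 2 were nearly without it. The list was not uniform: 16 of its 37 members had a positive log2 fold change, and its median was -0.76, which was -0.40 without very low replicate 1 and -1.40 without very low replicate 2.

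**Figure D5:**
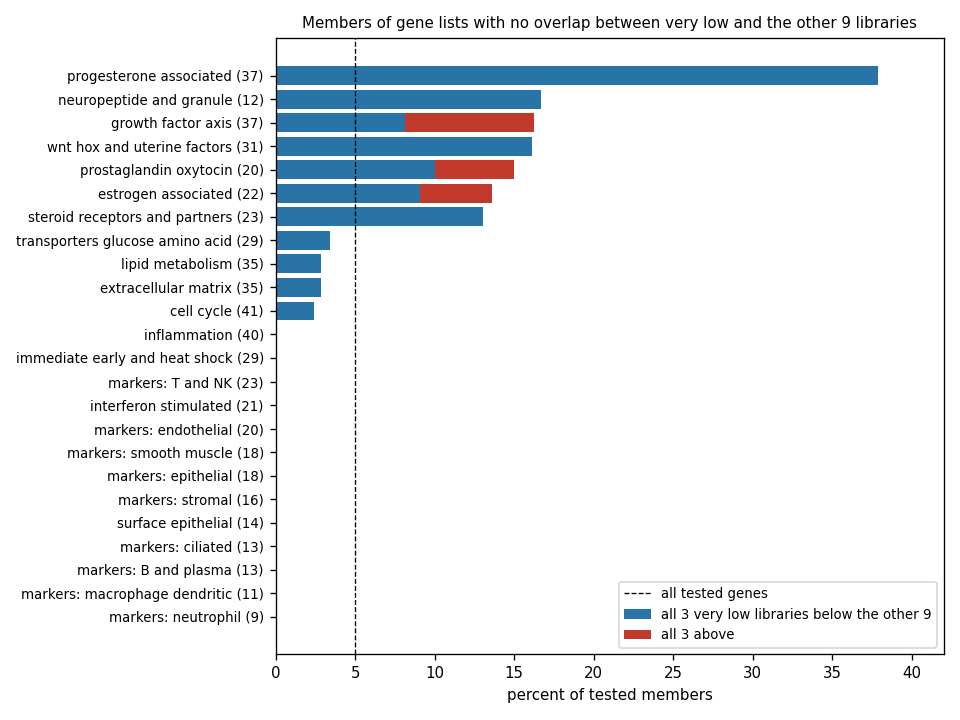
Percent of the tested members of each gene list (horizontal axis) whose 3 very low libraries lie all below (blue) or all above (red) the other 9, with the number of tested members in brackets and the share of all tested genes, 4.98%, as a dashed line. The progesterone-associated list, part of which was chosen with these data known, reaches 14 of 37 members, and no member of the inflammation, interferon, surface epithelial, immediate early and heat shock lists and the 9 marker lists shown lies on 1 side.

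Lists of inflammation and of most cell types gave no gene with all 3 libraries on 1 side. None of 40 inflammation genes, 21 interferon-stimulated genes, 14 surface epithelial genes and 29 immediate early and heat shock genes did, nor any tested epithelial, ciliated, stromal, smooth muscle, endothelial, neutrophil, macrophage and dendritic, T and NK or B and plasma cell marker. Over all tested genes the share on 1 side was 4.98%, so a count of 0 in any 1 list of these sizes is not far from the background. A count of 0 across all of these lists lies below that share, and whether the shortfall exceeds sampling was not tested. The integrin ITGAM, on macrophages and neutrophils, passed the test with overlap, at 13.4, 21.9 and 8.19 CPM against 1.60 to 9.99 CPM (log2 1.94, edgeR adjusted p = 0.0446). The overlap came from the low class, at 3.45 to 9.99 CPM, while the high and very high classes had 1.60 to 4.16 CPM. Medians of several of these lists turned with 1 library. The inflammation median was 1.21 and -0.47 without very low replicate 2, the neutrophil median 2.76 and -1.16, the epithelial median 0.41 and -0.80. The smooth muscle median was 1.70 and -2.36 without very low replicate 1. With the smooth muscle and epithelial scores as covariates, all 95 called genes kept their direction and 80 of the 81 without overlap an unadjusted edgeR p under 0.05, but 34 of the 95 passed the adjusted threshold. Where 0.867% of all tested genes passed, none of 41 cell cycle genes did. Their median was 0.94, 0.26 without very low replicate 3 and 0.02 with the smooth muscle and epithelial scores as covariates, and CCNB1, the mitotic cyclin B1, was the 1 gene on 1 side and lay below, at 2.30, 8.52 and 58.9 CPM against 68.9 to 349 CPM (edgeR adjusted p = 0.0872). Amino acid carriers went both ways: SLC38A7, a glutamine carrier of the lysosome, had 14.7, 23.5 and 25.5 CPM against 31.8 to 108 CPM (median 84.2) (log2 -1.85, edgeR adjusted p = 0.0446), and the glutamine carrier SLC1A5 passed with overlap at 23.3, 73.3 and 41.5 CPM against 7.78 to 43.1 CPM (log2 1.55, edgeR adjusted p = 0.0446). Of 29 transporters 1 rose and 1 fell, of 35 lipid genes 1 fell, and of 35 extracellular matrix genes none passed, with medians of 0.30, -0.17 and 0.68 for these lists. Over all tested genes 0.292% rose and 0.575% fell, so counts of 1 or 0 in lists of these sizes are near the background. The remaining medians were 0.48 for interferon-stimulated, 1.63 for surface epithelial and 0.35 for immediate early and heat shock genes. For cell type markers they were 1.25 for macrophage and dendritic cells, 0.88 for T and NK cells, -0.03 for B and plasma cells, 0.66 for stroma, -0.60 for endothelium, -0.15 for ciliated cells and -1.14 for blood. Without very low replicate 2 the surface epithelial median was 0.30 and that of T and NK cells 0.38, and with both scores as covariates the T and NK median was 0.03.

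Whether the genes that fell were off in the very low class and alike elsewhere was examined through the differences among the other 3 classes. No gene passed a joint edgeR test among the low, high and very high classes (0 of 10959 genes; 1014, or 9.25%, had an unadjusted p under 0.05, and 339 passed in DESeq2), which does not show that the classes were alike. The 3 class levels of 40 of the 60 lower genes lay within 2-fold of each other (66.7%), where 82.9% of all tested genes did. HPGD, AKR1B1 and WNT11 are of that kind, and WNT11 averaged 43.1 ± 28.2, 45.0 ± 13.9 and 51.2 ± 21.6 CPM (SD, n = 3 each) in the low, high and very high class. PENK and MEP1B had less even class means, with unadjusted edgeR p among the 3 classes of 0.0373 and 0.0229. PENK averaged 772 ± 649.9, 828 ± 62.2 and 3208 ± 1813 CPM, and MEP1B 76.1 ± 66.5, 104 ± 34.3 and 349 ± 249 CPM.

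The order of those 3 classes was mostly the order of their names, low, high and very high. In 44 of the 60 lower genes (73.3%) the class levels rose in the order low, high and very high, against 21.1% of all tested genes, and in 1 they fell in that order. Over the 346 genes with all 3 very low libraries below, whatever their p, the share was 50.3%. Without low replicate 3 it was 37.6%, against 19.3% of all genes in that fit. The low class also had lower smooth muscle scores than the high and very high classes (4.44 to 5.45 against 8.59 to 9.84), and the part of make-up in this order was not tested. Of the 21 higher genes 14 fell in the order low, high and very high (66.7%, all tested genes 22.4%) and none rose. The library nearest to the very low ones belonged to the low class in 54 of the 60 lower genes, and in 46 of them it was low replicate 3. No very high library was nearest in any of the 60. Low replicate 3 had 14.6 CPM of NRCAM and 21.3 CPM of KLF15, and the 8 other libraries of the low, high and very high classes were higher. On the very low side, replicate 3 was nearest to the others in 37 of the 60 genes, replicate 2 in 14 and replicate 1 in 9. Over all 346 genes below, whatever their p, very low replicate 3 was nearest in 193, replicate 2 in 95 and replicate 1 in 58. A low library was nearest in 245 of the 346, low replicate 3 in 177 and a very high library in 27.

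One gene met a strict reading of on and off, with at most 3 reads in each very low library and at least 10 in each of the other 9. This was MGC138914, a protein-coding gene with no further name in the reference table, at 3, 3 and 1 reads or 0.530, 0.774 and 0.130 CPM in the very low class and 2.46 to 69.6 CPM (median 19.8) in the others (log2 -5.81, SE 1.10, edgeR adjusted p = 0.0446). No gene met it in the opposite direction.

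Some of the lower genes neighbour each other in the genome, as picked out after their values were seen. By the order of protein-coding genes in the reference assembly ARS-UCD2.0, MCOLN3 lies beside MCOLN2 and MCOLN2 beside LPAR3. MCOLN2, a channel of the same family, had 4.42, 15.5 and 10.9 CPM against 32.6 to 119.8 CPM (median 65.9) (log2 -2.70, edgeR adjusted p = 0.0446). LPAR3, a lysophosphatidic acid receptor, had 0.353, 3.1 and 5.46 CPM against 7.24 to 103 CPM and did not pass (edgeR adjusted p = 0.0816). Between FMO2 and FMO4 lies FMO1, with 0.177, 0.258 and 0.260 CPM against 0.791 to 8.48 CPM (edgeR adjusted p = 0.0615). In both runs of 3 genes all very low libraries lay below all others. CNOT1, a scaffold of the deadenylase complex, lies between SETD6 and SLC38A7, and all 3 fell (log2 -1.75, -1.77 and -1.85, edgeR adjusted p of 0.0446 to 0.0497), while GOT2 on the far side of SLC38A7 had a log2 fold change of 0.17 (edgeR adjusted p = 0.623). How the reads were assigned to strands is not given in the sources used here, so reads of overlapping or adjoining genes were not separated.

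Several genes with wide gaps missed the threshold, and 3 of them, picked with their values in view, are given here. CLDN8, a tight junction claudin, had 0, 12.6 and 7.54 CPM against 48.2 to 383 CPM (median 60.6) (log2 -4.10, SE 1.04, edgeR adjusted p = 0.0672). SCARA5, a receptor for ferritin, had 40.1, 8.0 and 116 CPM against 295 to 754 CPM (median 522) (log2 -3.13, SE 0.70, edgeR adjusted p = 0.0533). PIP, the prolactin-induced protein, had 0.707, 2.32 and 24.4 CPM against 72.4 to 365 CPM (median 188) (log2 -4.46, edgeR adjusted p = 0.0533). In each of them the 3 very low libraries were the lowest of the 12, which the choice by gap requires.

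The counts of calls moved with single libraries. Adjusted p of the 81 genes lay between 0.0267 and 0.0497, just under the threshold. Without very low replicate 1, 2 or 3 the test called 412, 1 and 550 genes, without low replicate 3 it called 431, without high replicate 1 it called 1, and without any 1 of the 7 other libraries it called none, the lowest edgeR adjusted p then being 0.0515 to 0.0917. In each of these 12 fits all 95 genes kept their direction, all 81 had an unadjusted p under 0.05, and the highest edgeR adjusted p among the 81 was 0.108.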

How the data were processed

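Endometrial biopsies of 12 samples in 4 classes of progesterone were sequenced as stranded, oligo-dT selected libraries pooled in equal amounts, per the labels' protocols. FastQC 0.11.2 and Trimmomatic 0.32 appear in the submitters' processing notes, as do 2 genome builds, UMD3.1 and bosTau8. Which aligner and counter were run, and with what strand setting, is not given in the sources used here. The authors deposited raw counts per gene symbol, not scaled or pooled, 1 column per sample named by its title, with totals of 3772564 to 8379489. No 2 replicates agreed within sampling noise (chi-square divided by its degrees of freedom 21.8 to 284).

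From the counts, genes were kept by filterByExpr (count minimum 10), scaled by TMM and fitted as 4 class means in edgeR 4.0.16 (R 4.3.3) with 8 residual degrees of freedom. Very low minus the mean of the other classes was tested, and jointly the differences among those 3 classes. CPM are TMM-scaled, SD is over the 3 libraries of a class, and a class level is the mean log2(CPM + 0.5). The gap is the distance in log2(CPM + 0.5) between the nearest libraries of the 2 sides. Alternatives used DESeq2 1.42.0, limma 3.58.1 (voom), another scaling, no filter, thinning, covariates, a replicate block and each library left out. In simulated data for this comparison (10959 genes) the test recovered 77.0% of 4-fold and 18.0% of 2-fold changes, with 5 false calls. Changed genes were drawn from the better expressed ones only, and each gene had the same dispersion in every class. Recovery at the wider spread of the real very low libraries was not tested.

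Genes named by rule were PGR, ESR1 and OXTR, the 10 widest gaps per direction among called genes without overlap, genes with at most 3 reads on 1 side and at least 10 on the other, and up to 3 called members per list. Locus numbers were not named. The comparison, lists and rule were chosen with earlier results of these data known. Of the symbols, 13492 matched the RefSeq table of ARS-UCD2.0 by name, 316 by synonym and 122 not at all. Of the 33 named genes, 9 share some positions with another gene listed there, but with no tested one.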

Additional observations from a re-analysis of the deposited data

Results flagged for a closer look

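In 4 of 43 sets of 9 values (the 9 libraries of the low, high and very high classes, for 33 named genes and 10 marker scores) the lowest library lay far from the rest by Dixon's criterion, and chance flags about 1 such set in 20. All 4 were genes lower in the very low class, and in all 4 the library was low replicate 3. The gap to the next library took 0.624 of the range for NRCAM (14.6 CPM), 0.607 for SLC27A6 (6.51 CPM), 0.686 for KLF15 (21.3 CPM) and 0.511 for FKBP5 (99.6 CPM), where the critical share for 9 values is 0.493. Without low replicate 3 the number of genes with all 3 very low libraries on 1 side was 1080, against 546 with it. Fewer libraries make that condition easier to meet. Without any 1 of the other libraries of the low, high and very high classes the number was 557 to 655.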

How the results depend on the processing

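The 31 called genes named by rule kept their direction in each of the 21 alternatives in which they were tested (20 for FGF18, which the filter left out after thinning) and their call in 7 to 12 of them. The main counts, 95 called, 81 of them with no overlap, 0 among the other 3 classes and 546 with no overlap whatever the p, held within 1.5 times with DESeq2's size factors in edgeR, with no filter and with thinned counts. DESeq2 called 1311, 465 of them with no overlap, and 339 genes among the other classes. Limma-voom called 42 and 41. A fit of 2 groups, 3 against 9, called 155 and 134. With a smooth muscle score added to the model the counts were 1479 and 395, and 14 among the other classes, and with smooth muscle and epithelial scores 177 genes were called, of which 34 were among the 95. Leaving out 1 library at a time gave 0 to 550 called genes, 0 to 412 with no overlap, 0 to 22 among the other classes, and 557 to 1423 with no overlap whatever the p. The share of genes below that rose from low to very high was 37.4% to 57.3% in those fits, against 17.9% to 26.5% of all genes, a measure chosen after seeing the data, as were the alternatives for the counts with no p. The fit with a replicate block (replicate numbers of the titles) called 0 and 0 genes (unadjusted p under 0.05 in 2205), all 95 genes kept their direction, and 81 of 81 kept an unadjusted p under 0.05. Nothing says that the numbers pair the samples: the deviations of same-numbered libraries correlated from -0.30 to 0.29, and 2 of 12 libraries correlated best with their own number. With totals from 3772564 reads, genes at a few reads, such as MEP1B in the very low class, are imprecise. The cause of the moves was not tested.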

Other observations

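A few groups of genes outside the lists and rules above were looked up after their values were seen. Another Polycomb gene moved against PHF19: EED, a core subunit of the complex, had 63.1, 48.5 and 69.0 CPM in the very low class and 88.5 to 199 CPM in the others (log2 -1.19, SE 0.21, edgeR adjusted p = 0.0446). PHGDH, the first enzyme of serine synthesis, had 17.1, 38.7 and 104 CPM against 208 to 1027 CPM (log2 -3.74, SE 0.69, edgeR adjusted p = 0.0446), while its class means elsewhere were 604, 627 and 964 CPM in the low, high and very high class. HHIP, which binds and restrains hedgehog ligands, had 0, 0.258 and 0.130 CPM against 1.01 to 7.65 CPM (log2 -4.39, SE 0.80, edgeR adjusted p = 0.0446), on the same side as the ligand IHH. PPP1R1B, an inhibitor of protein phosphatase that protein kinase A switches on, had 8.13, 5.16 and 14.6 CPM against 27.9 to 87.3 CPM (log2 -2.66, SE 0.39, edgeR adjusted p = 0.0416), and the copper transporter SLC31A2 had 20.3, 32.5 and 40.2 CPM against 88.7 to 318 CPM (log2 -2.62, SE 0.47, edgeR adjusted p = 0.0446). Enzymes of lipid, sugar and heme metabolism were also among the called genes without overlap. The oxysterol hydroxylase CYP39A1 had 20.3, 20.7 and 32.5 CPM against 35.7 to 881 CPM (log2 -3.57). CROT, which moves medium-chain fatty acids out of peroxisomes, had 29.3, 50.1 and 52.4 CPM against 75.8 to 188 CPM (log2 -1.52), and KHK, which phosphorylates fructose, had 20.0, 17.0 and 14.4 CPM against 21.0 to 49.7 CPM (log2 -1.09). ALAD, an enzyme of heme synthesis, had 88.7, 71.0 and 142 CPM against 193 to 436 CPM (log2 -1.58). On the higher side ST3GAL5, which makes the ganglioside GM3, had 12.2, 30.7 and 20.7 CPM against 6.29 to 11.7 CPM (log2 1.37), and ATP6V1B2, a subunit of the proton pump of lysosomes, had 140.3, 166 and 135 CPM against 62.7 to 128 CPM (log2 0.84).

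Among 4 tested blood and platelet markers, 3 had all very low libraries below the other 9, where 3.16% of all tested genes did, and none passed the test. The hemoglobin gene HBA had 0.353, 0.516 and 0.260 CPM in the very low class and 1.16 to 4.22 CPM in the others (edgeR adjusted p = 0.0508). HBQ1, another globin, had 2.65, 2.07 and 2.86 CPM against 3.78 to 7.04 CPM (edgeR adjusted p = 0.0861), and the platelet integrin ITGA2B had 6.19, 20.4 and 11.7 CPM against 21.4 to 40.9 CPM (edgeR adjusted p = 0.0803).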
